A study of Mus musculus with 12 samples.

Results

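The genes described here are 37 components of B cell receptor signalling: the receptor's signalling chains, its coreceptors and surface partners, its inhibitory receptors, and the kinases, phosphatases, adaptors, lipid enzymes, exchange factors and transcription factor that act below it. Members were found through the transcript accession that the array annotation gives each probe, and each gene was represented by its brightest probe over the 12 arrays. All 37 were found, on 49 probes, and all 37 passed the filter on dim probes, out of 20018 genes named on the array and 12287 named genes tested. RNA of splenic B cells was hybridised to one-colour Agilent arrays, 3 arrays in each of 4 groups. Knockout stimulated and control stimulated cells had been cultured for 72 h in medium with IL-2 (100 U/mL), IL-4 (5 ng/mL), IL-5 (1.5 ng/mL), CD40 ligand (0.2 ng/mL) and NP-ficoll (0.01 ng/mL), a polysaccharide carrying the hapten NP that binds the cells' receptor. Knockout resting and control resting cells were labelled naïve, with no stimulus for differentiation, and how the splenic B cells were purified is not given in the sources used here. Knockout mice were B1-8hi:Sub1fl/fl-Mb1-Cre and control mice were B1-8hi:Sub1fl/fl, so both genotypes carried B1-8hi, a rearranged heavy chain gene giving NP-binding receptors, and the floxed alleles of Sub1, which encodes the chromatin protein PC4. Mb1-Cre is a Cre recombinase inserted into Cd79a, a member of the module, and acts in B-lineage cells from early stages. Loss of Sub1, the presence of Cre and the insertion in Cd79a cannot be told apart, because no group here carries Cre without the floxed alleles. The labels do not say whether the 3 arrays of a group come from separate mice, and the spread that the p-values rest on may therefore be technical in part.

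The B cell receptor is a membrane immunoglobulin held in a complex with Cd79a and Cd79b, whose cytoplasmic tails are phosphorylated by Src-family kinases when antigen binds. Syk then docks on the tails, and the adaptor Blnk gathers Btk and phospholipase C gamma, which releases calcium and activates protein kinase C, NF-kappa-B and NFAT, while phosphoinositide 3-kinase is engaged through the coreceptor complex. Cd22, Cd72, Siglecg and Fcgr2b counter these steps by bringing in the phosphatases Ptpn6 and Inpp5d, and mature follicular B cells lose several of these surface proteins as they become plasmablasts.

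The study's title joins PC4 with IKAROS and IRF4, so the start regions of the members were read for letters that factors of B cells are known to bind. RefSeq windows (build GRCm38.p6) from 250 bases before to 50 bases after a gene's start were at hand for 30 of 37 members. Shown are Cd79a, whose locus carries the Cre insertion, and Cr2, Fcer2a, Cd22, Cd38 and Ptpn6, the members that fell on stimulation in both genotypes and hold the IKAROS core, a choice made after values and matches were seen. Bcl10, Cd55, Fcgr2b and Prkcb also fell in both and hold another of the motifs searched. Fcer2a has 3 windows with 2, 1 and 0 matches, and the one with 2 is shown. Each is written 5′ to 3′ on the gene's strand, and capitals mark matches on either strand to the IKAROS core TGGGAA, the EBF core CCCNNGGG or the ETS-IRF composite GGAANNGAA. Neighbouring matches can overlap, as they do in Cd38 and Cd22.
Cd79a, chr7:24897247-24897546, plus strand: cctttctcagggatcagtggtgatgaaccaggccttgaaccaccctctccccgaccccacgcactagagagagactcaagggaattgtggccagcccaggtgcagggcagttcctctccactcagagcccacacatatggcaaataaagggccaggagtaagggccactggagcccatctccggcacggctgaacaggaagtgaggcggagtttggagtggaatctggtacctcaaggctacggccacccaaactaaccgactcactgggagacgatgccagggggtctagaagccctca
Cr2, chr1:195176670-195176969, minus strand: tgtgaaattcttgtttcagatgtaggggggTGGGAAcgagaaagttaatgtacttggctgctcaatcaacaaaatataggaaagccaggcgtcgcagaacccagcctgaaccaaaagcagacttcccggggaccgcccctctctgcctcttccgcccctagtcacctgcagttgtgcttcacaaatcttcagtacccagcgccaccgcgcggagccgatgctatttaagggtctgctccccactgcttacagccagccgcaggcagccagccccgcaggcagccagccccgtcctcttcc
Fcer2a, chr8:3690812-3691111, minus strand: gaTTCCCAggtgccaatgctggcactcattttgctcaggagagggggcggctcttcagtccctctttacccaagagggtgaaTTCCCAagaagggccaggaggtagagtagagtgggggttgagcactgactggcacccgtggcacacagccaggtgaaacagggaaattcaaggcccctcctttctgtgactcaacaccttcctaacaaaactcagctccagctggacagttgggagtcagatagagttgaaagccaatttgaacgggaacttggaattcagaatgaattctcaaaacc
Cd22, chr7:30878979-30879278, minus strand: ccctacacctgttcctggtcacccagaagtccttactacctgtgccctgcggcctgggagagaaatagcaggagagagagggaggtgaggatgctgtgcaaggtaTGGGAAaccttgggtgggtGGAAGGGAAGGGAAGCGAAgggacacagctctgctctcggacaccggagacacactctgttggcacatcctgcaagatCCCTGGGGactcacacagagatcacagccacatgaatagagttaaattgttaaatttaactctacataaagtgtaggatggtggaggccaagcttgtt
Cd38, chr5:43868559-43868858, plus strand: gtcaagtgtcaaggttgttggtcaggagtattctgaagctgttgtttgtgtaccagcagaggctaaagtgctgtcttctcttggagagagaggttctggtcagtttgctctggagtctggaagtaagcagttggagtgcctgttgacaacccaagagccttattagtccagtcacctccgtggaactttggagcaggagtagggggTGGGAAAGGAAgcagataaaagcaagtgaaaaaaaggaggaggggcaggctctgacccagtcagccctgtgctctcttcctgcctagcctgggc
Ptpn6, chr6:124738660-124738959, minus strand: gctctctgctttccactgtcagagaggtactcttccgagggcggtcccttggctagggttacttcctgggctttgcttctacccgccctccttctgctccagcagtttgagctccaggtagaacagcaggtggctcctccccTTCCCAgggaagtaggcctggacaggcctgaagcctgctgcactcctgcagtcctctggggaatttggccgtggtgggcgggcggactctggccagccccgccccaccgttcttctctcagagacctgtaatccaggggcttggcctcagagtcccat
The IKAROS core was present in a window of 11 of 30 members (36.7%), against 28.3% of the 27025 genes with such a window. For the other motifs the shares were 7 of 30 members (23.3%) against 15.4% of genes for the EBF core, and 4 of 30 (13.3%) against 9.42% for the ETS-IRF composite. The octamer ATTTGCAT was found for Blnk and Prkcb alone among the 30 members (6.67%), and for 1.97% of genes. Of 19 members with a window that fell on stimulation in control cells, 6 held the IKAROS core, and of 11 that did not pass the test, 5 did. None of the 4 motifs was in the Cd79a window, which says only that these letters are not in it.

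Levels are the log2 of the scanner's background-subtracted signal relative to the array's 75th percentile, and a change is a difference of group means on that scale, with its standard error (SE). Changes were tested with limma over 22972 features, and a change was called at a Benjamini-Hochberg adjusted p under 0.05. Between 24.3% and 76.8% of spots were well above background, with the lowest share on control stimulated replicate 2. Sub1, the targeted gene, read 6.72, 6.87 and 6.92 in knockout stimulated cells, against 8.19, 7.79 and 8.15 in control stimulated cells, a change of -1.21 (SE 0.19, adjusted p = 0.0114). In resting cells it read 5.37, 5.80 and 5.77 in knockout and 6.07, 6.02 and 6.0 in control, a change of -0.38 (SE 0.19, adjusted p = 0.268). The position of its probe relative to the floxed part is not given in the sources used here. Replicates 1 and 2 of every group shared slide 1 and replicate 3 was on slide 2. The 2 arrays of control replicate 1 alone showed the Y-linked Ddx3y and Eif2s3y well above background, while Xist was well above background on the other 10. In both control groups replicate 1 thus came from a different mouse than replicates 2 and 3, and for the knockout groups these signals do not tell. Results were also computed without the 2 arrays of control replicate 1.

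The B cell marker Pax5 was well above background on 11 arrays. Markers of other cells were present too, and several moved with the groups. The summed level (on the linear scale) of 7 tested NK cell markers, among them Gzma and Nkg7, was 219 to 426 in knockout stimulated and 35.2 to 37.2 in control stimulated cells, and Gzmb of that list had a change of 3.14 (adjusted p = 0.00553). For 10 T cell markers, among them Thy1 and Cd4, it was 60.3 to 71.5 in knockout stimulated and 43.9 to 54.3 in control stimulated cells. Most of that sum was Thy1, with means of 5.65 and 5.29 in these groups, and 0.58 and -0.41 in knockout resting and control resting cells. Zap70 of that list had a change of 2.11 between the stimulated groups (adjusted p = 0.0171). Of 13 myeloid markers, among them Csf3r and Itgam, 5 were called higher in knockout stimulated cells, and the median change of the 13 was 2.19. Their sum was 143 to 192 in knockout stimulated and 160 to 185 in control stimulated cells, but it was mostly Csf3r. Csf3r had means of 6.98 and 7.26 in these groups, against 3.38 and 3.34 for Itgam, the second brightest over all arrays. The sum thus says little of the other myeloid markers. The defining markers Cd3e, Ncr1, Csf1r and Adgre1 were well above background on all 3 knockout stimulated arrays, and on 2, 1, 3 and 2 of the 3 control stimulated arrays. Ncr1, Klrb1c, Eomes and Zbtb46 passed the filter on dim probes only through knockout stimulated cells, which fixed their counts there in advance. Over all spots the shares well above background were 42.6% to 76.8% on knockout stimulated and 24.3% to 60.1% on control stimulated arrays. Levels of Cd3e overlapped between these groups (0.56 to 1.38 and -0.42 to 1.73). The counts therefore do not compare how many such cells the groups held. In resting cells none of the marker genes was called. The sum of the 9 B cell markers, among them Pou2af1 and Ly86, was 301 to 345 in knockout stimulated, 345 to 433 in control stimulated, 359 to 403 in knockout resting and 466 to 523 in control resting cells. Pou2af1, the brightest, had a mean of 6.63 in knockout stimulated and 7.76 in control stimulated cells. Yet 7 of the 9 had a positive change between these 2 groups, with a median of 0.25, and 1 was called lower. The sum of 5 plasma cell markers, among them Xbp1 and Jchain, was 180 to 238 in knockout stimulated against 359 to 579 in control stimulated cells, and 152 to 211 in knockout resting against 80.0 to 98.7 in control resting cells. For 6 dendritic markers, among them Siglech and Itgax, the sums were 40.9 to 123 in knockout stimulated, 43.1 to 195 in control stimulated, 55.2 to 200 in knockout resting and 56.5 to 246 in control resting cells, with Zbtb46 well above background on 5 arrays. Siglech, the brightest of them, was highest on replicate 3 of every group (6.92, 7.60, 7.55 and 7.91 in that order), the arrays of slide 2. Erythroid markers (4 tested, Hbb-bt and Hba-a1 among them) summed to 3.35 to 12.3, 2.45 to 6.69, 70.7 to 308 and 8.13 to 94.9 in the same order of groups, and 5 platelet markers (Pf4 and Itga2b among them) to at most 13.8 on any array. Of the dendritic markers 1, and of the erythroid markers 1, was called higher in knockout stimulated than in control stimulated cells. The share of these cells in the results below was not tested, and fewer cells of a type and less RNA per cell cannot be told apart in these samples.

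The first comparison asked how the receptor module differed between knockout and control cells after stimulation. Of the 37 members, 2 were called lower and 0 higher, where 2.26% of all features were called lower and 1.21% higher. The 2 were Cd79a and Fcer2a. The members' median change was -0.09 (22 negative, 15 positive), beside -0.02 over all features.

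Cd79a, the Ig-alpha signalling chain, read 3.0, 2.36 and 2.38 in knockout stimulated cells, against 3.95, 3.37 and 3.70 in control stimulated cells. The lowest control array lay above the highest knockout array. The change was -1.10 (SE 0.24, adjusted p = 0.0343), a signal lower by a factor of 2.14, and it was -0.98 within slide 1 and -1.32 within slide 2. Cd79b, the Ig-beta chain that pairs with it and carries no insertion, read 8.5, 8.40 and 8.28 in knockout stimulated and 8.29, 8.04 and 8.78 in control stimulated cells. These groups overlapped, with a change of 0.02 (SE 0.22, adjusted p = 0.954).

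Fcer2a, the low-affinity IgE receptor CD23 of follicular B cells, read 1.44, 0.93 and 1.43 in knockout stimulated cells, against 2.28, 1.99 and 2.56 in control stimulated cells. The groups did not overlap, and the change was -1.01 (SE 0.23, adjusted p = 0.042). It was -0.95 within slide 1 and -1.12 within slide 2. Both calls were narrow. Without both arrays of control replicate 1, or on slide 1 alone, 0 members were called. Leaving out 1 array gave 4 calls, all lower and including both genes, without control stimulated replicate 2. It left Cd79a alone without control resting replicate 3, and Cd72 alone, as higher, without control stimulated replicate 3, where both Cd79a and Fcer2a lost their calls. Without any of the other 9 arrays 0 members were called. Cd79a kept its call in 11 of 25 other settings and Fcer2a in 8 of 25, and in all of them both changes were negative.

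Same-numbered arrays deviated together in this comparison, and with the replicate number as a block 6 members were called. Those added were Cd81 (adjusted p = 0.0301), Cd72 (0.031), Fcgr2b (0.0456) and Rasgrp3 (0.0386). Cd81, a tetraspanin of the coreceptor complex, read 4.94, 4.84 and 4.58 in knockout stimulated and 5.99, 5.39 and 5.65 in control stimulated cells. Fcgr2b, the inhibitory IgG receptor, read 1.07, 0.87 and 0.64 in knockout stimulated and 1.97, 1.23 and 1.84 in control stimulated cells. Neither gene's groups overlapped. Without the block their changes were -0.89 (SE 0.22, adjusted p = 0.0579) and -0.82 (SE 0.22, adjusted p = 0.078). Rasgrp3, which activates Ras below diacylglycerol, had a change of -0.96 (SE 0.31, adjusted p = 0.117).

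Cd72, an inhibitory lectin-like receptor that recruits Ptpn6, stood on the other side. It read 3.57, 3.18 and 3.44 in knockout stimulated cells, against 2.03, 1.86 and 3.02 in control stimulated cells, a change of 1.10 (SE 0.29, adjusted p = 0.0669), or 1.43 within slide 1 and 0.42 within slide 2. Its second probe gave a change of 1.11 (adjusted p = 0.0259 with every probe tested on its own). Lyn, the Src-family kinase that phosphorylates both activating and inhibitory tails, read 0.51, 0.23 and 0.25 in knockout stimulated cells, against -0.07, -0.53 and -0.42 in control stimulated cells. Lyn was well above background on 2 of the 3 control stimulated arrays, and its change was 0.67 (SE 0.20, adjusted p = 0.0932). The groups of both genes did not overlap. In all 9 of 37 members (24.3%) were free of overlap, 2 higher and 7 lower, where 25% of all features were, 11% higher and 14% lower, so the count says nothing particular of the members. The others were Blnk (change -0.54, adjusted p = 0.166) and Bcl10 (-0.34, adjusted p = 0.286).

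The signs of many other members in this comparison rest on the scaling. Taking the percentile only over spots that every array detected moved the median of all features to 0.39 and gave 30 positive and 7 negative members, with 7 called higher and 1 lower. Scaling to the array median moved it to -0.58 and gave 3 positive and 34 negative members, with 0 called higher and 3 lower. Relative to the median of all features, 22 members were lower under each of these scalings, against 12 after quantile normalization and 13 of 37 with normexp background correction. With probes detected on all 12 arrays 9 of 31 were lower. Cd79a, Fcer2a, Cd81, Fcgr2b, Rasgrp3, Vav2 and Blnk were negative, and Cd72, Lyn and Fyn positive, under all 5 scalings and backgrounds tried.

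**Figure D1:**
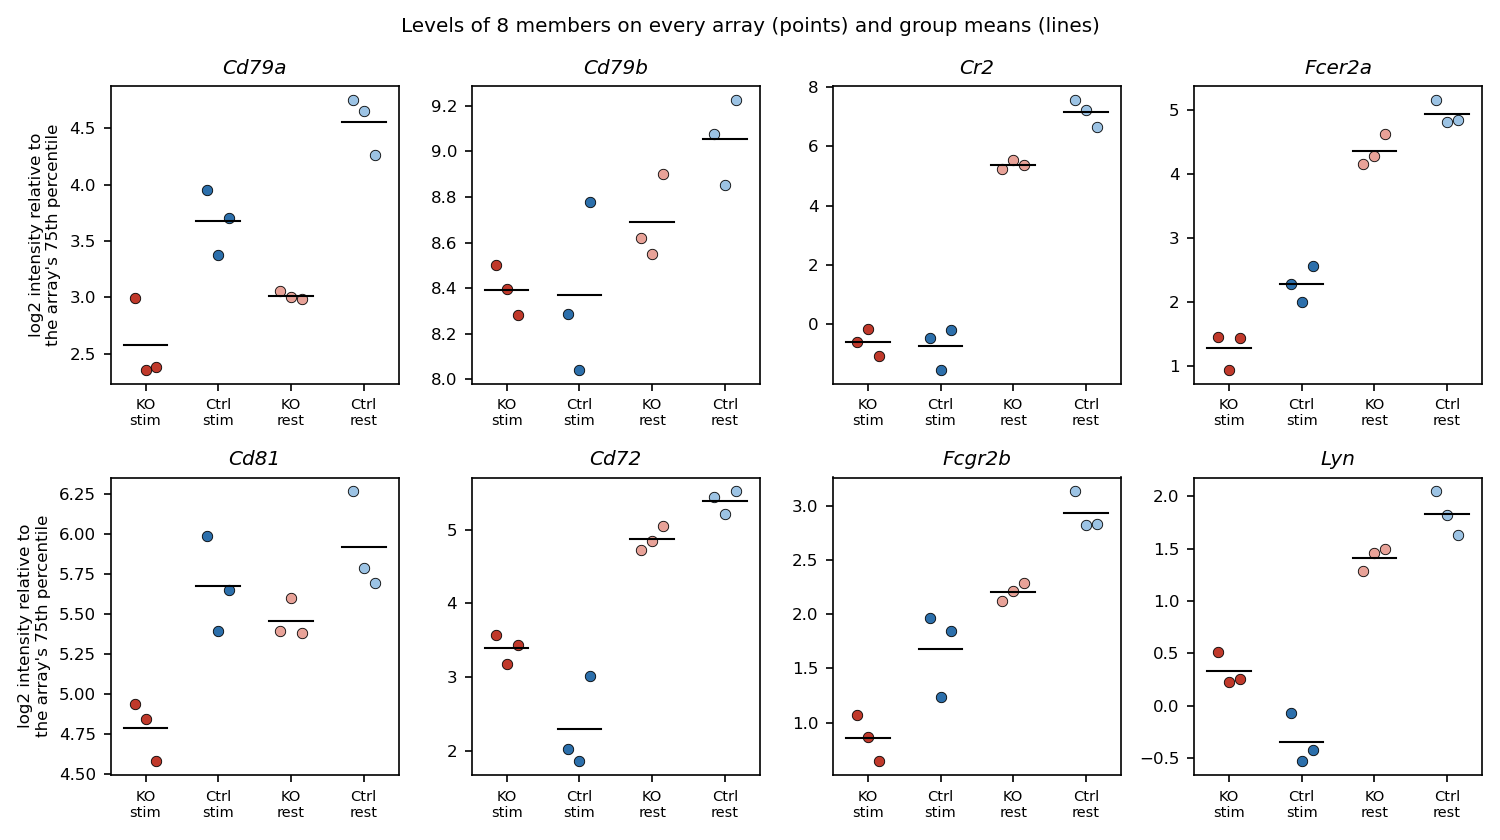
Levels of 8 members on every array, as log2 intensity relative to the array's 75th percentile (vertical axis, its own range in each panel), for knockout (KO) stimulated, control (Ctrl) stimulated, KO resting and Ctrl resting cells; points are arrays, lines group means. Cd79a was lower in knockout cells in both states, Cr2 was near its lowest level in all stimulated arrays, and Cd72 and Lyn were higher in knockout stimulated than in control stimulated arrays.

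The second comparison was the same contrast in resting cells. By limma 0 of 37 members were called, where 0.00435% of all features were called lower and 0.00871% higher; 19 of 37 members (51.4%) had an unadjusted p under 0.05, against 19.7% of features. All 37 changes were negative, with a median of -0.51, but the median of all features was itself -0.21 under this scaling. Relative to it, 34 of 37 members were lower, and the members' median lay at -0.30. The 3 that were not were Fyn, Bcl10 and Vav2. Over probes detected on all 12 arrays the all-feature median was -0.35. Of the 31 members tested there 26 were below it, and their median lay at -0.17 relative to it. With the percentile over spots that every array detected, 28 were negative and 9 positive with an all-feature median of 0.14, and after quantile normalization 30 and 7, with 28 of 37 below the all-feature median.

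Cd79a had the smallest p. It read 3.05, 3.0 and 2.99 in knockout resting cells, against 4.76, 4.66 and 4.26 in control resting cells, a change of -1.54 (SE 0.24, adjusted p = 0.0947). The groups did not overlap. The change was -1.68 within slide 1 and -1.27 within slide 2, which held replicate 3 alone of each group. It was called in 6 of 25 other settings. Cd79b read 8.62, 8.55 and 8.90 in knockout resting and 9.08, 8.85 and 9.23 in control resting cells, with overlapping groups and a change of -0.36 (SE 0.22, adjusted p = 0.319). Cr2, the complement receptor CD21 that joins Cd81 in the coreceptor complex, read 5.24, 5.52 and 5.38 in knockout resting cells, against 7.57, 7.21 and 6.63 in control resting cells. Its change of -1.76 (SE 0.38, adjusted p = 0.158) was the largest among the members in resting cells, and its second probe gave -1.78. Cd38, an ectoenzyme of the B cell surface, read 2.90, 2.96 and 3.03 in knockout resting and 3.82, 3.47 and 3.54 in control resting cells, a change of -0.65 (SE 0.18, adjusted p = 0.186).

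In resting cells 23 of 37 members (62.2%) lay lower in knockout cells without overlap of the groups, where 26.8% of all features did so, and 0 members lay higher without overlap, where 9.93% of all features did. In either direction 36.7% of all features were free of overlap, and their median lay below 0 too, as given above. The members' share was above that of all features, but it was counted under this scaling alone. Of 92 other genes of antigen receptor signalling, 53 were free of overlap in either direction, with a median change of -0.37. So were 7 of the 9 B cell markers outside the module, and such a share was thus not particular to the members. The differences between these shares were not tested. The 23 included 5 of 6 coreceptor and surface partners, 3 of 4 inhibitory receptors and 5 of 5 adaptors, and none of the 3 PI3K components or the 3 exchange factors. The inhibitory receptor Cd22 had a change of -0.99 (SE 0.32, adjusted p = 0.214), the CBM complex protease Malt1 -0.75 (SE 0.21, adjusted p = 0.198), and the transcription factor Nfatc1 -0.70 (SE 0.21, adjusted p = 0.2). Syk, the kinase that docks on the receptor tails, had -0.24 (SE 0.31, adjusted p = 0.596), and Pik3r1, a regulatory subunit of PI3K, -0.24 (SE 0.31, adjusted p = 0.597). The B cell markers outside the module had a median change of -0.53 in the same comparison, and the myeloid markers one of 1.45, with no gene of either list called. Their part in the members' changes was not tested.

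**Figure D2:**
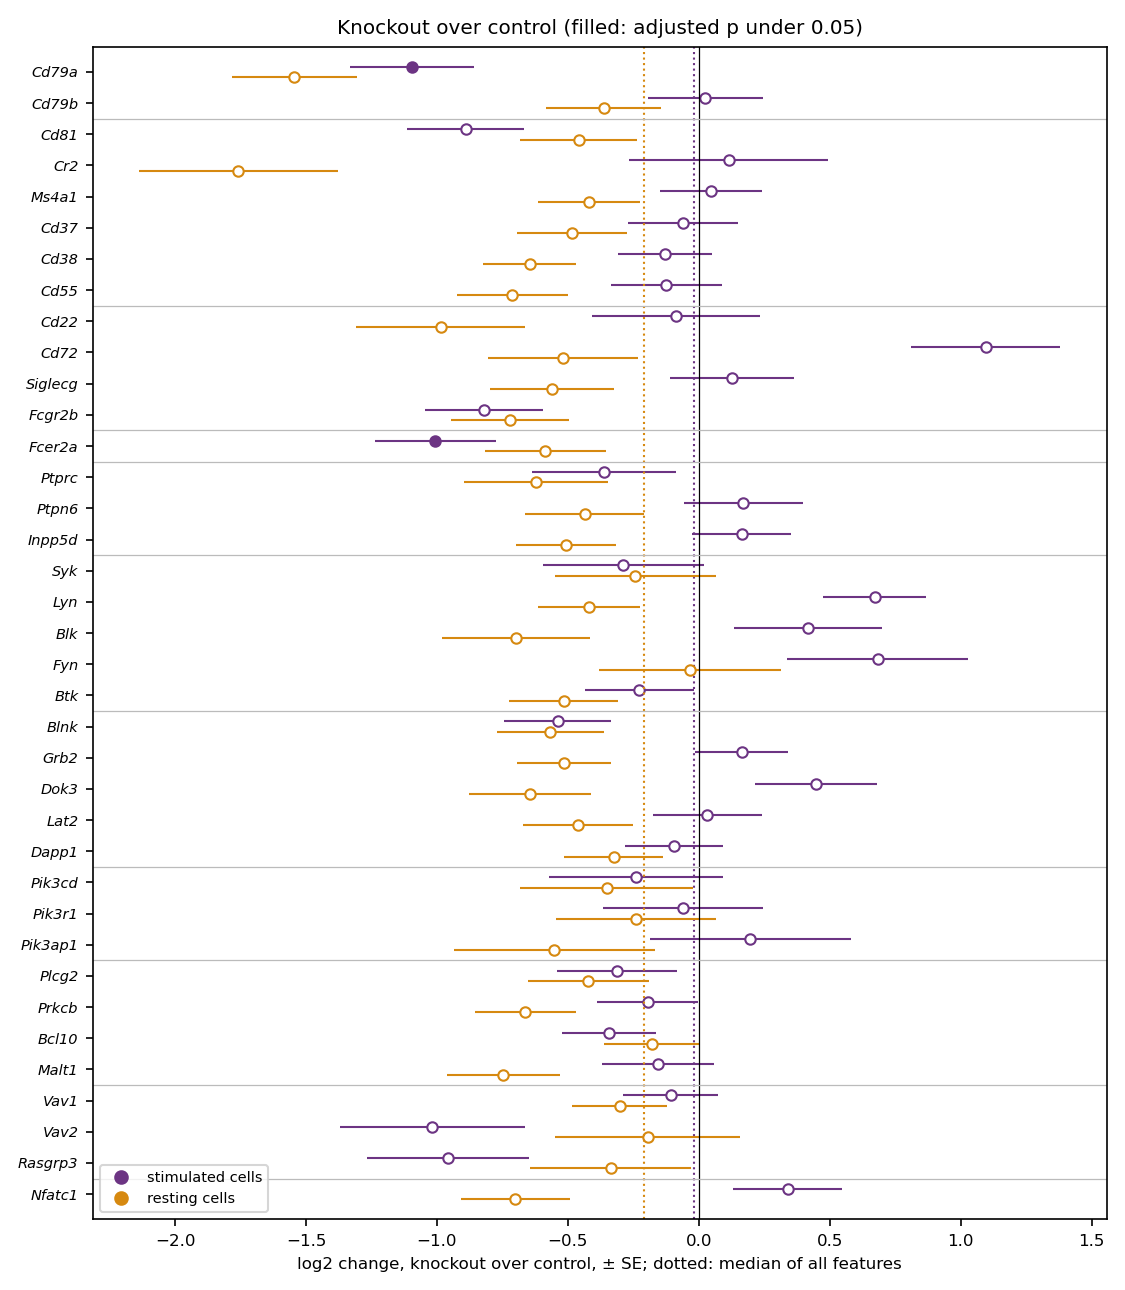
Log2 change of each of the 37 members, knockout over control (horizontal axis, with SE), in stimulated (purple) and resting (orange) cells; filled points had an adjusted p under 0.05, dotted lines are the medians of all features (-0.02 and -0.21), and grey lines part the roles. All 37 orange points lie below 0, while the purple ones lie on both sides, with Cd79a, Fcer2a, Vav2 and Rasgrp3 lowest and Cd72 highest.

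The third question was how the module responded to stimulation in each genotype. In knockout cells 13 members were called lower and 0 higher, where 5.2% of all features were called lower and 10.9% higher. In control cells 24 were called lower and 0 higher, where 13.1% of features were called lower and 14.7% higher. The members' median change was -0.59 in knockout and -1.07 in control cells, beside 0.10 and 0.04 over all features. Of the 9 B cell markers outside the module, 3 were called lower and 0 higher in knockout cells (median -0.68). In control cells 8 of the 9 were called lower and 1 higher (median -1.48), so falls were not particular to the members. The same 12 members fell in both genotypes, Rasgrp3 was called in knockout cells alone, and 12 members were called in neither. How far the responses differ is tested below.

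Among the coreceptor and surface partners, Cr2 had the deepest fall. It read -0.60, -0.14 and -1.07 in knockout stimulated cells and 5.24, 5.52 and 5.38 in knockout resting cells, a change of -5.99 (SE 0.38, adjusted p = 1.99e-05). In control cells it read -0.44, -1.54 and -0.18 when stimulated, with 2 of 3 arrays well above background, and 7.57, 7.21 and 6.63 when resting, a change of -7.86 (SE 0.38, adjusted p = 2.08e-06). All 6 stimulated arrays thus lay below 0, whatever the genotype. Cd55, which protects cells from complement, read 2.07, 2.07 and 1.67 in knockout stimulated against 4.07, 4.49 and 4.53 in knockout resting cells. In control cells it read 1.99, 1.86 and 2.34 when stimulated against 5.22, 4.98 and 5.04 when resting. Cd55 fell by 2.42 in knockout cells (SE 0.21, adjusted p = 5.88e-05) and by 3.01 in control cells (SE 0.21, adjusted p = 9.57e-06). Cd38 fell by 0.83 and 1.35 in knockout and control cells. The tetraspanin Cd37 fell by 1.08 in control cells (adjusted p = 0.00305) and had -0.65 in knockout cells (adjusted p = 0.0601). Cd81 and Ms4a1, the surface protein CD20, were not called in either genotype. With the replicate block, Ms4a1 was called lower in control cells (adjusted p = 0.0326), and Cd81 and Cd37 were called lower in knockout cells. For stimulation of knockout cells same-numbered arrays correlated by only 0.003, 0.15 and 0.39, which limits all calls that the block added there.

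Of the 4 inhibitory surface receptors, all fell in control cells and 3 in knockout cells. Cd72 read 3.57, 3.18 and 3.44 in knockout stimulated against 4.73, 4.85 and 5.05 in knockout resting cells, a change of -1.47 (SE 0.29, adjusted p = 0.00561). In control cells it read 2.03, 1.86 and 3.02 when stimulated against 5.44, 5.21 and 5.52 when resting, a change of -3.09 (SE 0.29, adjusted p = 3.28e-05). The lowest knockout stimulated array was above the highest control stimulated array, while the resting levels ran the other way. Cd22, a sialic acid-binding receptor, read 2.52, 1.93 and 2.72 in knockout stimulated against 3.56, 3.30 and 3.76 in knockout resting cells. It read 2.44, 1.89 and 3.1 in control stimulated against 4.70, 4.22 and 4.64 in control resting cells. Its falls were 1.15 in knockout (SE 0.32, adjusted p = 0.0347) and 2.04 in control cells (SE 0.32, adjusted p = 0.000844), and stimulated levels overlapped between genotypes. Fcgr2b fell by 1.35 in knockout and 1.25 in control cells. Siglecg, another sialic acid-binding inhibitor, had -0.03 in knockout cells (adjusted p = 0.961) and fell by 0.72 in control cells (adjusted p = 0.0441). That call was lost in 15 of 25 other settings, and a dimmer probe gave -0.82 in control cells (adjusted p = 0.0705 with every probe tested on its own).

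Fcer2a read 1.44, 0.93 and 1.43 in knockout stimulated against 4.16, 4.28 and 4.62 in knockout resting cells, and 2.28, 1.99 and 2.56 in control stimulated against 5.17, 4.81 and 4.84 in control resting cells. It fell by 3.09 in knockout cells (SE 0.23, adjusted p = 3.36e-05) and by 2.67 in control cells (SE 0.23, adjusted p = 2.34e-05). The receptor chains moved less. Cd79a had -0.43 in knockout cells (SE 0.24, adjusted p = 0.283) and fell by 0.88 in control cells (SE 0.24, adjusted p = 0.0173). Cd79b had -0.30 in knockout cells (SE 0.22, adjusted p = 0.461) and fell by 0.68 in control cells (SE 0.22, adjusted p = 0.0396). In control cells the call of Cd79b was lost in 14 of 25 other settings and that of Cd79a in 7.

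Among the tyrosine kinases, Syk read 4.33, 4.05 and 4.67 in knockout stimulated against 5.99, 6.01 and 6.60 in knockout resting cells, and 4.86, 3.99 and 5.06 in control stimulated against 6.53, 6.17 and 6.62 in control resting cells. It fell by 1.85 in knockout (SE 0.31, adjusted p = 0.00242) and 1.80 in control cells (SE 0.31, adjusted p = 0.00141). Lyn fell by 1.08 in knockout cells (SE 0.20, adjusted p = 0.00381), between 0.51, 0.23 and 0.25 when stimulated and 1.28, 1.46 and 1.50 when resting. In control cells it fell by 2.17 (SE 0.20, adjusted p = 2.85e-05), between -0.07, -0.53 and -0.42 when stimulated and 2.05, 1.82 and 1.63 when resting. Blk, a Src-family kinase of B cells, had -0.48 in knockout cells (adjusted p = 0.331) and fell by 1.59 in control cells (adjusted p = 0.00179). Fyn, well above background on 2 of 3 control stimulated and 2 of 3 knockout resting arrays, and Btk, which activates the phospholipase, were called in neither genotype.

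The phosphatase Ptpn6 (SHP-1) fell by 1.02 in knockout and 1.63 in control cells. The receptor phosphatase Ptprc (CD45) had -0.86 in knockout cells (adjusted p = 0.0588) and fell by 1.12 in control cells (adjusted p = 0.0109), and the lipid phosphatase Inpp5d (SHIP) was not called. Ptprc and Pik3r1 were called lower in knockout cells with the replicate block. Of 5 adaptors, Grb2 and the inhibitory Dok3 fell in control cells, by 0.80 and 1.26, and none was called in knockout cells. A dimmer probe of Grb2 gave -0.46 in control cells (adjusted p = 0.151 with every probe tested on its own). Blnk, Lat2 and Dapp1 were called in neither, with changes between -0.21 and 0.43, although a dimmer probe of Dapp1 gave -1.01 in control cells (adjusted p = 0.00774 with every probe tested on its own). Among PI3K components, Pik3r1 and the adaptor Pik3ap1 (BCAP) fell in control cells, by 1.07 and 1.34, with 2 and 1 of the 3 control stimulated arrays well above background, and the groups of Pik3ap1 overlapped. The catalytic subunit Pik3cd had 0.76 in knockout (adjusted p = 0.165) and 0.65 in control cells (adjusted p = 0.19), and with the replicate block it was called higher in knockout (adjusted p = 0.0125) and in control cells (adjusted p = 0.015). Its 2 dimmer probes gave 0.72 and 0.73 in knockout cells (adjusted p = 0.0673 and 0.105) and 0.88 and 0.90 in control cells (adjusted p = 0.0173 and 0.0305), each probe tested on its own.

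Prkcb, the protein kinase C that links the receptor to NF-kappa-B, fell by 0.97 in knockout and 1.44 in control cells. Of the complex it feeds, Bcl10 fell by 0.89 in knockout and 0.73 in control cells, and Malt1 had -0.59 in knockout cells (adjusted p = 0.0936) and fell by 1.18 in control cells (adjusted p = 0.00201). The phospholipase Plcg2 had 0.05 in knockout and -0.06 in control cells. Rasgrp3 read 1.68, 1.77 and 2.06 in knockout stimulated against 2.96, 3.08 and 3.90 in knockout resting cells, and fell by 1.48 (SE 0.31, adjusted p = 0.00827). In control cells it read 3.1, 2.30 and 2.99 when stimulated against 3.56, 3.38 and 4.01 when resting, a change of -0.85 (SE 0.31, adjusted p = 0.0634, or 0.018 with the replicate block). The Rac exchange factors Vav1 and Vav2 were not called, Vav2 with 2 of 3 control stimulated and 2 of 3 knockout resting arrays well above background. Nfatc1 read 2.60, 2.86 and 2.53 in knockout stimulated against 2.57, 3.16 and 3.12 in knockout resting cells, which overlapped (change -0.29, SE 0.21, adjusted p = 0.45). In control cells it read 2.19, 2.24 and 2.54 when stimulated against 3.66, 3.71 and 3.58 when resting, and fell by 1.33 (SE 0.21, adjusted p = 0.000813). Its second probe gave 0.61 in knockout and -0.86 in control cells, so the probes differ in sign in knockout cells.

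Of the 24 calls in control cells, 13 held in every other setting that tested the member, among them Cr2, Cd55, Fcer2a, Cd72, Lyn and Cd22, and of the 13 in knockout cells 5 did, Cr2, Cd55, Cd72, Fcer2a and Syk. Scaling to the array median left 5 called in knockout and 14 in control cells, and leaving out knockout stimulated replicate 2 left 7 in knockout cells.

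**Figure D3:**
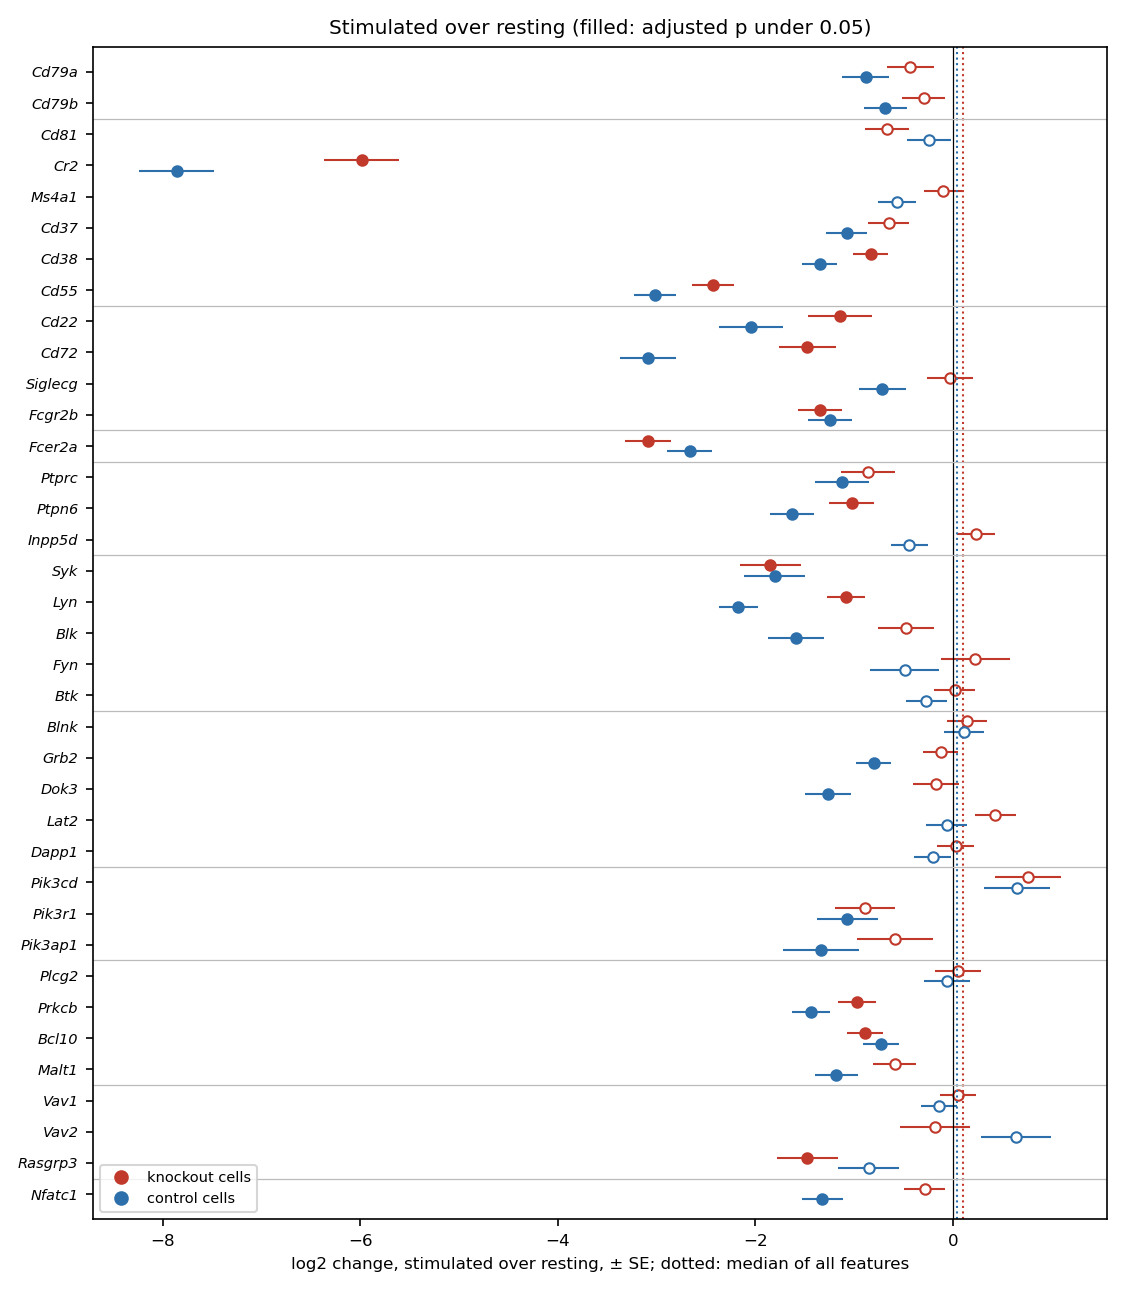
Log2 change of each of the 37 members, stimulated over resting (horizontal axis, with SE), in knockout (red) and control (blue) cells; filled points had an adjusted p under 0.05, and dotted lines are the medians of all features. Cr2, Cd55, Fcer2a and Cd72 lie farthest to the left in control cells, and 24 blue and 13 red points are filled, all of them below 0.

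**Figure D4:**
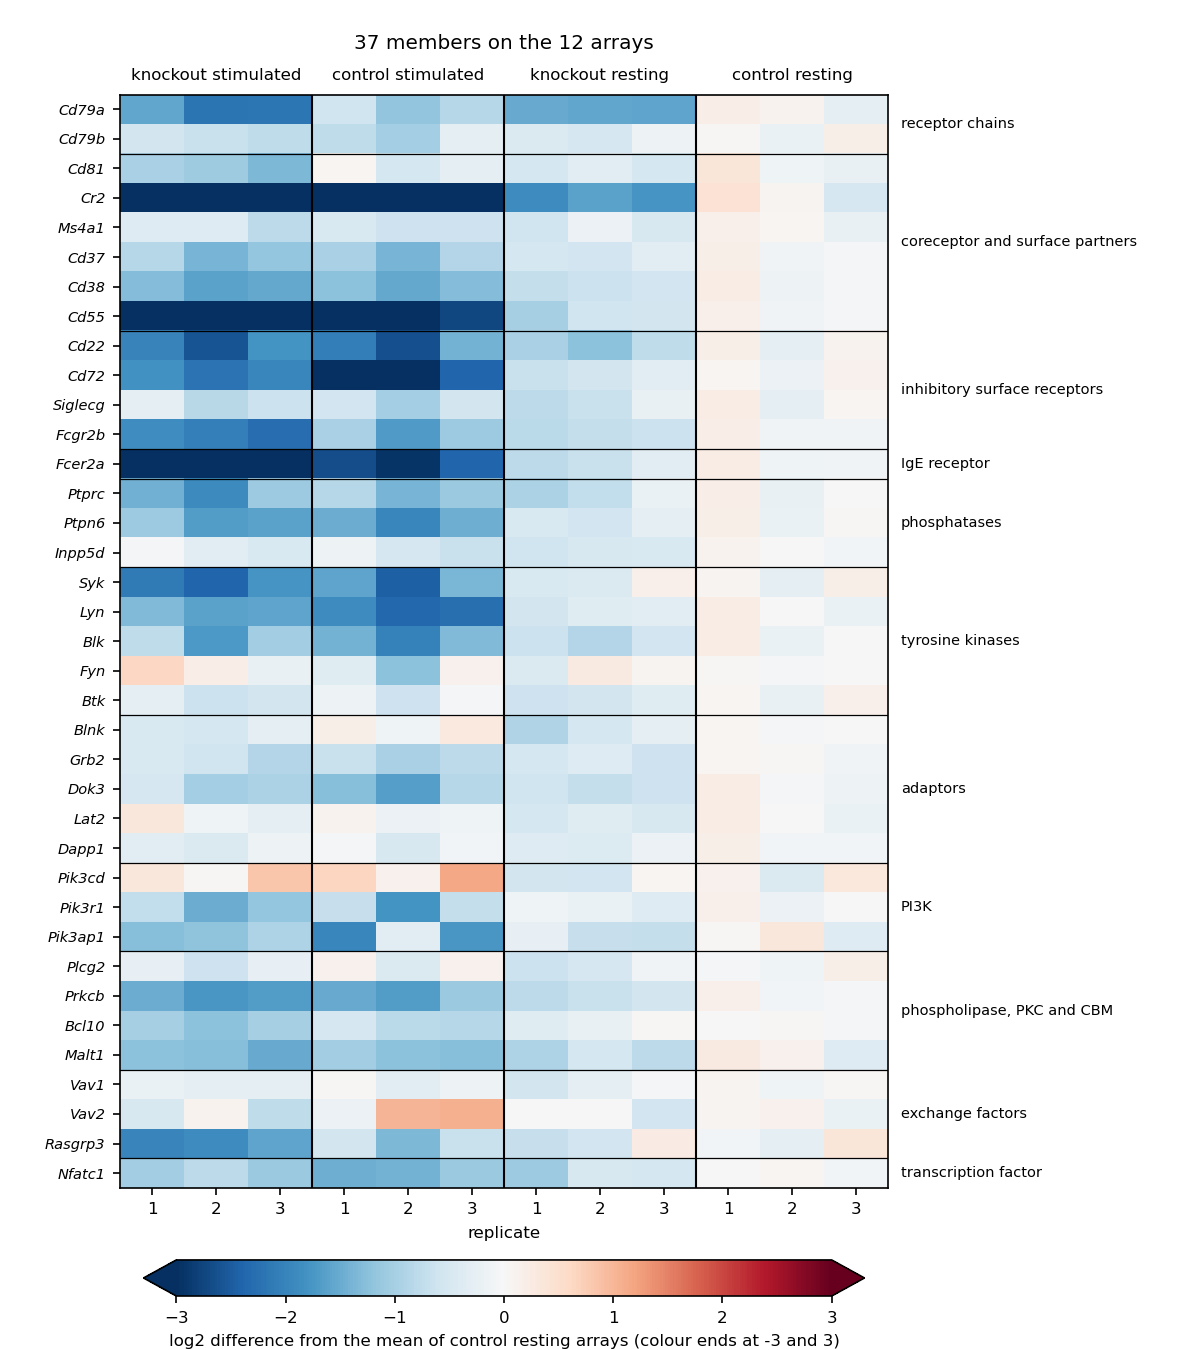
Level of each of the 37 members (rows, grouped by role) on each of the 12 arrays (columns, replicates 1 to 3 of each group), as the log2 difference from the gene's mean in control resting cells; blue is lower, red higher, and the colour scale ends at 3 in each direction. The stimulated columns are blue for most surface receptors, Cd79a is blue in all 6 knockout columns, and Pik3cd is among the few rows with red in stimulated columns.

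Whether stimulation changed the members differently in the genotypes was tested as the interaction, knockout response minus control response. By limma 0 of 37 members were called, where 0.0522% of features were called higher and 0.0914% lower; 8 of 37 members (21.6%) had an unadjusted p under 0.05, against 10.6% of features. The differences were positive for 30 and negative for 7 members, with a median of 0.47 beside 0.08 over all features. They were positive too for 8 of the 9 B cell markers outside the module (median 0.72). For 63 of 92 other genes of antigen receptor signalling they were positive as well (median 0.22). Among the members the smallest p-values belonged to Cd72 (1.61, SE 0.40, adjusted p = 0.161), Lyn (1.09, SE 0.28, adjusted p = 0.165) and Nfatc1 (1.04, SE 0.29, adjusted p = 0.208). Cr2 had 1.87 (SE 0.54, adjusted p = 0.211), or 2.63 within slide 1 and 0.36 within slide 2, and 2.55 by its second probe. On slide 2 the differences of Cd72, Lyn and Nfatc1 were 0.90, 0.81 and 0.45, and on slide 1 they were 1.97, 1.23 and 1.34. Cd79a had 0.45 (SE 0.34, adjusted p = 0.731) and Cd79b 0.39 (SE 0.31, adjusted p = 0.762). A call in 1 genotype and not in the other thus does not show that the responses differ. Cd72 was called in 4 of 25 other settings, among them the fit without control stimulated replicate 3, and Lyn in 1.

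Other genes of antigen receptor signalling, from a list of 98 of which 92 were tested, were read beside the members. In stimulated cells 3 of 92 were called lower and 0 higher in knockout than in control, beside 2.26% and 1.21% of all features, so the count is near the background. Cd24a, a small glycosylphosphatidylinositol-anchored protein of B cells, read 4.39, 4.16 and 4.35 in knockout stimulated against 6.25, 5.69 and 5.76 in control stimulated cells, a change of -1.60 (SE 0.20, adjusted p = 0.00497). Pik3r5 and Pik3cg, the regulatory and catalytic subunits of the gamma form of PI3K, had -1.51 (SE 0.25, adjusted p = 0.0136) and -1.50 (SE 0.30, adjusted p = 0.0276). In resting cells their changes were -0.09 and 0.02, and that of Cd24a was -0.18. In resting cells and for the interaction none of the 92 was called. On stimulation 11 of 92 rose and 17 fell in knockout cells, where 10.9% of all features rose and 5.2% fell. In control cells 14 of 92 rose and 28 fell, where 14.7% of all features rose and 13.1% fell. Among those that fell were the inhibitory receptor Btla (-3.1 in knockout, -3.12 in control) and Fcrl1, a receptor-like protein of B cells (-2.89 in knockout, -3.11 in control). The ubiquitin ligase Cblb fell by 1.16 in knockout and 2.84 in control cells, and the adaptor Dok2 had 2.42 in knockout and 1.69 in control cells, both called.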

How the data were processed

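RNA of splenic B cells was amplified, labelled with Cy3 and hybridised to 12 Agilent arrays, per the labels' protocols. The deposited values are linear, background-subtracted signal intensities, made by the authors with Agilent Feature Extraction 10.7.3.1 per the file headers (9.1 per the submitters' processing notes), and the series matrix repeats them, rounded (largest difference 0.497%). Outlier spots were set to missing, log2 values were set against the 75th percentile of each array's non-control spots, and spots of a probe were averaged. The filter on dim probes asked for a signal well above background on every array of some group. Names came from a RefSeq table of build GRCm38.p6 (26413 of 55681 probes). This gave 22972 features (12287 genes by their brightest probe, 10685 unnamed probes). Changes were fitted with limma 3.58.1 (R 4.3.3; lmFit, eBayes, 4 group means, 8 residual degrees of freedom) and p-values adjusted by Benjamini-Hochberg over all features, which holds for each adjusted p given. The script was tested on simulated data. The number of arrays limits the precision.

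The members, lists and tests were chosen with earlier results of these data known. Values on every array were given for Cd79a and Cd79b, for the 6 called members with the largest change in a comparison, or, with no call, for the 3 of lowest p; up to 4 called pathway genes a comparison and the 2 tested markers a list with the highest mean log2 level over all arrays were named. Gzmb and Zap70, levels of Cd81 and Fcgr2b, and the members described beyond that rule, were chosen after their values were seen. Some genes that the naming rule takes are not reported here.

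Whether replicate numbers pair the arrays was checked on each array's deviation from its group mean: same-numbered arrays correlated in every pair for knockout against control after stimulation (0.35, 0.33 and 0.48) and for control stimulation (0.42, 0.43 and 0.51), but not in the resting comparison (-0.11, 0.20 and 0.39) or knockout stimulation, so a replicate block was fitted as an alternative. Others were 3 scalings, normexp background correction, the series matrix, 2 filters, the mean of a gene's probes, a slide block, eBayes with trend and robust settings, leaving out each array and, added after seeing the data, leaving out control replicate 1 in both states and slide 1 alone.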

Additional observations from a re-analysis of the deposited data

How the results depend on the processing

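Of 39 calls of single members, 0 turned direction under any of 25 alternatives. The 2 members called in stimulated knockout cells became 8 with the percentile over detected spots, 0 without a filter on dim probes, 6 with probes detected on all 12 arrays, 5 with the slide as a block, 6 with the replicate block, 6 with trend and robust settings, 0 without control replicate 1 in both states and 0 on slide 1 alone. Leaving out 1 array gave 0 to 4. After quantile normalization the count was again 2, but these were Cd72, higher, and Vav2, lower, and neither Cd79a nor Fcer2a was called. With normexp the 2 were Cd79a, lower, and Cd72, higher. The 0 called in resting cells became 1 with the percentile over detected spots, 1 after quantile normalization, 2 with normexp, 1 with probes detected on all 12 arrays, 1 with the replicate block and 2 with trend and robust settings (Cd79a in all 6, Cr2 in 2); leaving out 1 array gave 0 throughout. The 24 called on stimulation of control cells became 32 with the percentile over detected spots, 32 after quantile normalization and 14 with median scaling. They became 16 without a filter, 16 on slide 1 alone, and 17 to 25 when 1 array was left out. The 13 called on stimulation of knockout cells became 23 with the percentile over detected spots, 22 after quantile normalization, 5 with median scaling, 8 without a filter and 5 on slide 1 alone; leaving out 1 array gave 7 (knockout stimulated replicate 2) to 15. The 0 called for the interaction became 1 with the percentile over detected spots, with normexp, with probes detected on all 12 arrays and with trend and robust settings, and 0 to 1 (without control stimulated replicate 3) when 1 array was left out. The causes of these shifts were not tested, except that some settings hold fewer arrays or other features. The replicate block left 24 of 24 calls of control stimulation in place and added Ms4a1, Pik3cd and Rasgrp3. It left 13 of 13 of knockout stimulation and added Cd81, Cd37, Ptprc and Pik3r1 as lower and Pik3cd as higher. For the interaction it called 0. Over all features the split of calls on stimulation of knockout cells was 2498 higher and 1194 lower, or 1795 and 3148 with the percentile over detected spots; in control cells it was 3387 and 3011, or 2484 and 6035; for stimulated knockout cells it was 277 and 519, or 1978 and 370. Of the 37 members 6 were dim on some arrays (Cr2, Lyn, Fyn, Pik3r1, Pik3ap1 and Vav2), which limits the size of their changes.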
